A study of Mus musculus with 12 samples.

Results

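Cell cycle and DNA replication genes were followed in the skeletal tissues of mouse embryos that lack site-1 protease (S1P) in cartilage. They are 40 genes named for their roles in the cycle, all probes annotated to them were examined, and 35 of them could be measured, out of 12542 genes tested on the arrays. They fall into 6 genes of the G1/S transition, 13 of DNA replication and nucleotide supply, and 21 of mitosis. S1Pcko embryos carried S1P f/f with Col2-Cre, a Cre recombinase driven from the type II collagen promoter and so active in cells of the cartilage lineage, while cells of blood, vessel or muscle in the same tissue keep the gene. WT littermates carried S1P f/f or S1P f/+ without Cre, or S1P f/+ with Col2-Cre, so a WT array does not name its genotype further. All were C57BL/6 at embryonic day 16.5. RNA of chondroepiphyseal cartilage (the ends of long bones; 2 S1Pcko and 2 WT arrays), of entire long bones (3 and 3) and of calvaria (the skull vault; 1 and 1) was hybridised to 12 Illumina MouseWG-6 BeadChips. The labels mark the second cartilage array of each genotype as a repeat amplification, and the study's account of its embryos leaves 1 embryo per genotype for cartilage. The cartilage p-values, that of Nusap1 among them, set the cartilage difference against a spread pooled over the cartilage and long bone arrays. Within cartilage that spread is between amplifications and arrays. The cartilage p-values then cover no spread between cartilage embryos of a genotype. In long bone 1 of the 3 arrays of each genotype is marked as a second amplification. The label of WT array 1929 is that of WT array 1923 with the second amplification added. The 3 WT long bone arrays are then not 3 separate extracts, although the p-values treat them so. Which extract S1Pcko array 1930 was amplified from is not given, and there too the spread may be technical. Arrays are called by the number in their labels.

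The cell division cycle is driven by cyclins and cyclin-dependent kinases. D-type and E-type cyclins release the E2F transcription factors, which switch on the genes that copy DNA, and a later wave of mitosis genes is switched on through CCAAT boxes and a CHR element (cell cycle genes homology region) in their promoters. In a growing bone the round and columnar chondrocytes divide, while hypertrophic chondrocytes have left the cycle, so the levels of most of these genes in bulk tissue rise with the share of dividing cells.

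The start regions of 4 members are given as examples of the promoter letters searched for in replication and mitosis genes. RefSeq (GRCm38.p6) gave a promoter window of 250 bases before to 50 bases after the start for 30 of the 40 members, and the 200 bases just before the start are printed 5′ to 3′ on the strand of the gene. Capitals mark E2F-type letters (TTCCCGC or TTCGCGC or TTGGCGC or TTGCCGC), the CCAAT box, and CHR letters (TTTGAA or TTCGAA), each searched on both strands. The search words can overlap by letters, as TTGGCGC does with the reverse of CCAAT and with the reverse of TTCGCGC. Top2a (topoisomerase II alpha, which untangles sister chromatids) lies at chr11:99024190-99024389 on the minus strand and Mki67 (Ki-67, the coat protein of mitotic chromosomes) at chr7:135716380-135716579 on the minus strand.
Top2a: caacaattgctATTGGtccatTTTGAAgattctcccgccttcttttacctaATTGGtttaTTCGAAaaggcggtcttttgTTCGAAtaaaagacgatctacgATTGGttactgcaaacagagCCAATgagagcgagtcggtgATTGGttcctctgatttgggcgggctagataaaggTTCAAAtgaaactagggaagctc
Mki67: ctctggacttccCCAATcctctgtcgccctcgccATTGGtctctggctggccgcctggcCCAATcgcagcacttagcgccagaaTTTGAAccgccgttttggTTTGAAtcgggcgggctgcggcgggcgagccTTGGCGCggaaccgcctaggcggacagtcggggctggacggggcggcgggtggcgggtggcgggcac
The replication genes Mcm6 (a subunit of the helicase that opens the double helix), at chr1:128359706-128359905 on the minus strand, and Rrm2 (the small subunit of ribonucleotide reductase, which makes the building blocks of DNA), at chr12:24708054-24708253 on the plus strand, carry the following letters.
Mcm6: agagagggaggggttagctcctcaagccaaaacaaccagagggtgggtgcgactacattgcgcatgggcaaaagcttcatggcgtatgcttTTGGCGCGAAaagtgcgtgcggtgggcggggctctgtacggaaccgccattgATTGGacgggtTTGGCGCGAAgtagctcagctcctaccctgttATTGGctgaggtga
Rrm2: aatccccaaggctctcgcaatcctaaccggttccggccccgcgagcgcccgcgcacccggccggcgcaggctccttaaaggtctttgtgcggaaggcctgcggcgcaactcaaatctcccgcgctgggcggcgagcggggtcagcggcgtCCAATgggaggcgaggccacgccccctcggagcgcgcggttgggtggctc
Top2a holds 5 CCAAT and 4 CHR matches in this stretch, and Mki67 holds 3 CCAAT, 2 CHR and 1 E2F-type matches. Mcm6 holds 2 CCAAT and 4 overlapping E2F-type matches, and Rrm2 holds 1 CCAAT match. The stretch of Rrm2 shown has 0 E2F-type and 0 CHR matches, and its 1 E2F-type match lies elsewhere in its window. Over the full windows, CHR letters were found in 12 of 16 mitosis genes (75%) and in 2 of 11 replication genes (18.2%), against 21.7% of all 27025 genes with a window. E2F-type letters were found in 3 of 16 mitosis genes (18.8%) and in 8 of 11 replication genes (72.7%), against 10.9% of all genes. CCAAT was found in 14 of 16 mitosis genes, in 8 of 11 replication genes and in 41.1% of all genes. The 16 mitosis genes with a window are not the 16 measured ones. They include the unmeasured Ccnb1, Ccnb2 and Ube2c and lack the measured Foxm1, Aurkb and Tpx2. A match is a description of the letters and was not tested as a site, and the window of Nusap1, named below, held none of the 3 kinds.

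The values are log2 intensities after background correction and quantile normalisation, each gene is read from its brightest tested probe, and changes are S1Pcko minus WT. Mbtps1, the gene of S1P, stood at 8.62 and 8.87 on the S1Pcko cartilage arrays, against 8.89 and 9.04 on the WT cartilage arrays. In long bone it stood at 8.49, 8.66 and 8.41 in S1Pcko and at 9.11, 8.33 and 8.67 in WT, and in calvaria at 8.62 in S1Pcko and 8.73 in WT. Its change was -0.22 in cartilage (SE 0.23, adjusted p = 0.653, limma) and -0.18 in long bone (SE 0.19, adjusted p = 0.727). Where the probe lies relative to the deleted part is not given in the sources used here, so these values do not check the genotype. Over all tested probes S1Pcko long bone array 1922 stood apart from the others of its group. It differed from 1924 and 1930 by a root mean square of 0.42 and 0.415, while 1924 and 1930 differed by 0.265. WT long bone array 1921 stood apart less clearly. It differed from 1923 and 1929 by 0.387 and 0.452, while 1923 and 1929 differed by 0.338.

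Mitosis genes had lower values in S1Pcko cartilage and long bone, by a small amount each. By the adjusted p 1 of 16 passed as lower in cartilage and 0 in long bone, against 2.92% and 1.03% of all genes. In cartilage all 16 measured mitosis genes had a negative change, between -0.96 and -0.02 with a median of -0.33, where the median of all genes was 0.01. In long bone all 16 were again negative, between -0.47 and -0.02, with a median of -0.33 against -0.01 for all genes. The 16 include Plk1 and Kif11, which are near background. With probes required to be detected on every array of a group, 14 mitosis genes were left, and all 14 were negative in each tissue. Of the 13 replication genes 9 were negative in each tissue, with medians of -0.16 in cartilage and -0.14 in long bone. The 6 G1/S genes went both ways, with 4 negative in cartilage (median -0.10) and 3 negative in long bone (median 0.12). The cartilage and long bone comparisons share no array, but all arrays were normalised together and the fit shares its estimate of the spread. Sharing no array does not show that the tissues came from separate embryos. Without arrays 1921 and 1922, a choice made after seeing the data, 15 of 16 mitosis genes and 9 of 13 replication genes were negative in long bone, with medians of -0.30 and -0.10.

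**Figure D1:**
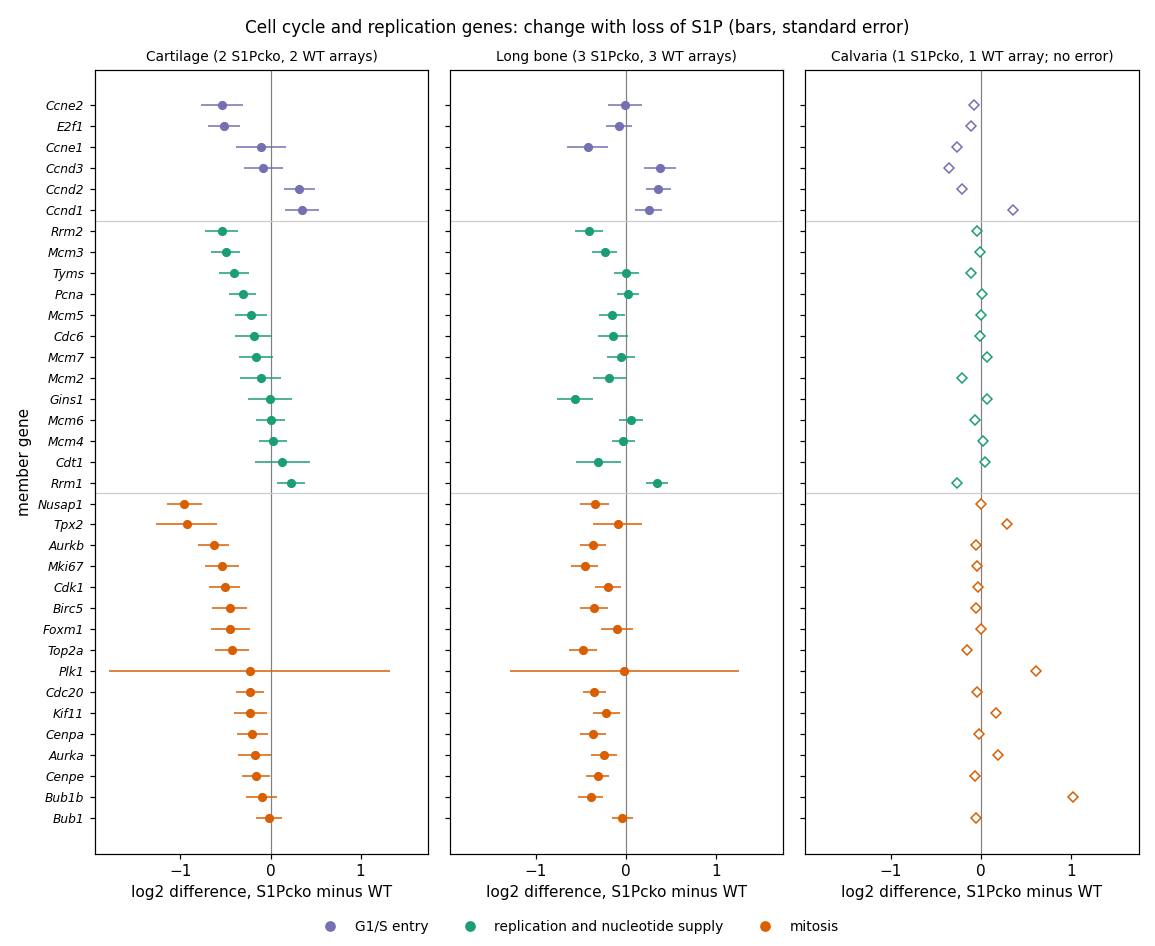
Log2 difference, S1Pcko minus WT, of the 35 measured genes (rows, by role) in cartilage, long bone and calvaria (columns); filled points are limma estimates with their standard errors and open diamonds are single differences between 2 arrays without an error. The 16 mitosis genes all lie left of 0 in cartilage and in long bone, and 9 of 16 do so in calvaria.

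With the adjusted p held under 0.05 and the fold change at 2 or more, as the study's methods set them, 0 of 35 members were called in cartilage by limma, where 1.53% of all genes were lower and 1.17% higher. By the adjusted p alone 1 member passed in cartilage, Nusap1, where 2.92% of all genes passed as lower and 2.38% as higher. In long bone 0 members passed (background 1.03% lower, 1.38% higher). At an unadjusted p under 0.05, 12 members were lower and 0 higher in cartilage, against 11.1% of all genes lower and 10.4% higher. In long bone 10 were lower and 2 higher, against 8.44% and 6.94% of all genes.

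A second view does not use the model, but it covers Kif11 and Plk1. Kif11 was measured only through WT arrays, being detected on 1 in cartilage, 1 in long bone and 0 S1Pcko arrays. In cartilage Plk1 was detected on 1 WT and 0 S1Pcko arrays. Both count among the 14 of 16 mitosis genes in cartilage, where they carry little. In cartilage the 2 S1Pcko arrays lay wholly below the 2 WT arrays for 14 of 16 mitosis genes, 6 of 13 replication genes and 3 of 6 G1/S genes, while this held for 26.2% of all genes. They lay wholly above WT for 0 mitosis genes, 1 replication gene (Rrm1) and 2 G1/S genes (Ccnd1 and Ccnd2), with 27.9% of all genes above. In long bone the 3 S1Pcko arrays lay below the 3 WT arrays for 8 mitosis genes, 3 replication genes and 0 G1/S genes (10% of all genes), and above for Rrm1 and Ccnd2 (9.19% of all genes).

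The median over the 16 mitosis genes, each set against its own mean over the 12 arrays, was -0.05 and -0.12 on the S1Pcko cartilage arrays, against 0.25 and 0.18 on the WT cartilage arrays. In long bone it was -0.34, -0.16 and -0.14 on S1Pcko arrays 1922, 1924 and 1930, against -0.03, 0.16 and 0.10 on WT arrays 1921, 1923 and 1929. The groups did not overlap in either tissue, and array 1922 was the lowest of all 12. For the 13 replication genes the same median was 0.07 and -0.16 in S1Pcko cartilage, against 0.19 and 0.11 in WT cartilage. It was -0.20, -0.10 and -0.03 in S1Pcko long bone, against -0.07, 0.03 and 0.09 in WT long bone, so the long bone groups overlapped. The medians of mitosis and replication genes differed by -0.17 in cartilage and -0.18 in long bone, mitosis being the lower, a difference for which no test was made. In cartilage it shrank to -0.016 without S1Pcko array 1920, where the replication median was -0.30, and to -0.037 with the mean of each gene's probes. In long bone it ran between -0.27 and -0.12 with a single array left out and was -0.089 with the mean of the probes.

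**Figure D2:**
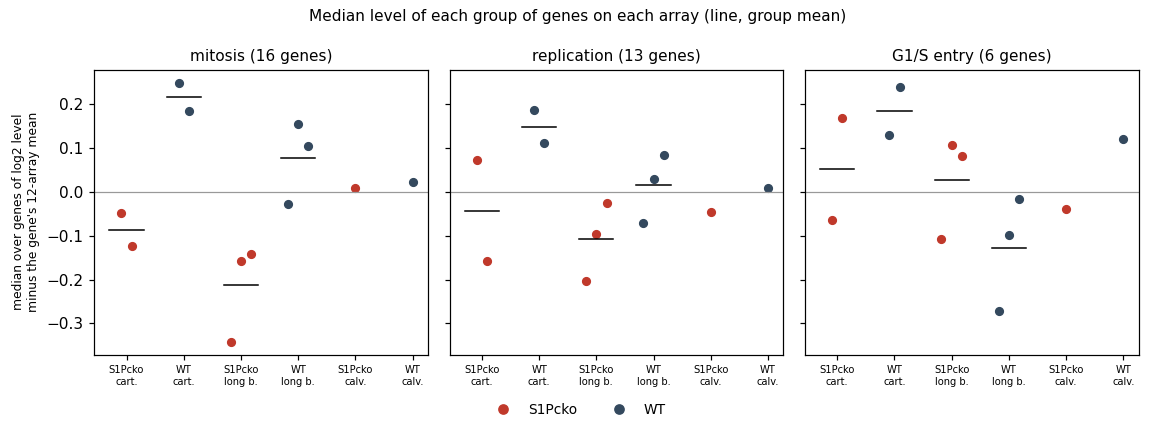
Median over the genes of each role of the log2 level minus the gene's mean over all 12 arrays (vertical axis), for each array (points; red S1Pcko, dark WT) in 6 groups of genotype by tissue; lines are group means. For mitosis genes the S1Pcko arrays lie below the WT arrays in cartilage and in long bone, and at 0.01 and 0.02 the 2 calvaria arrays lie together.

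Other cell types moved with the genotype, and in bulk tissue fewer cells of a type and less RNA per cell cannot be told apart. In long bone all 6 measured osteoclast markers were negative and 5 passed as lower by the adjusted p, against 1.03% of all genes. Their summed intensity was 7087 to 14880 in S1Pcko, against 22080 to 25780 in WT. Erythroid markers (4 of 4 measured negative, 3 passing) summed to 10790 to 16070 in S1Pcko, against 27630 to 28910 in WT. Myeloid markers (7 of 7 negative, median -2.11, 1 passing) summed to 579.7 to 3495 in S1Pcko, against 3903 to 15150 in WT. In cartilage 0 of 4 erythroid and 0 of 7 myeloid markers passed; the sums were 17460 to 18110 and 572.5 to 613.6 in S1Pcko, against 23960 to 25080 and 1108 to 1226 in WT. Osteoclast markers, 0 of 6 passing, went the other way in cartilage, with sums of 4093 to 4519 in S1Pcko against 2356 to 2604 in WT. In cartilage 4 of 4 measured epidermis markers were negative and 1 passed as lower, against 2.92% of all genes. They summed to 205.3 to 247.9 in S1Pcko cartilage, against 1058 to 1108 in WT cartilage. Muscle markers were negative for 8 of 8 in long bone (median -0.90, 0 passing), where they summed to 37370 to 103200 in S1Pcko and 93470 to 95390 in WT, and were split 4 to 4 in cartilage.

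Markers of the skeletal cells themselves moved too. Cartilage markers, 11 of 12 measured with 0 passing in either tissue, were negative for 10 of 11 in cartilage (median -0.36) and positive for 10 of 11 in long bone (median 0.27). They summed to 104300 to 105500 in S1Pcko cartilage, against 125600 to 129600 in WT cartilage, and to 72380 to 100900 in S1Pcko long bone, against 62400 to 111600 in WT long bone. Of 4 measured hypertrophic markers 1 passed as higher and 1 as lower in cartilage, and 1 as lower in long bone. Of all genes 2.38% and 2.92% did so in cartilage, and 1.03% in long bone. Of 6 osteoblast markers 0 passed in either tissue. The part of any of these in the mitosis and replication values was not tested.

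Among the mitosis genes, Nusap1, which binds and bundles spindle microtubules, fell in cartilage. It stood at 9.92 and 9.34 on S1Pcko arrays 1920 and 1928, against 10.69 and 10.48 on WT arrays 1919 and 1927. The change was -0.96 (SE 0.20, adjusted p = 0.0203, limma), a 1.94-fold fall, and the arrays of the genotypes did not overlap. In long bone Nusap1 stood at 9.78, 9.79 and 9.92 in S1Pcko, against 10.08, 10.29 and 10.16 in WT, again without overlap, but with an adjusted p of 0.349 (change -0.34, SE 0.16). The difference between its cartilage and long bone changes was -0.61 (adjusted p = 0.296), so it was not shown to differ between the tissues. The call in cartilage was lost when array 1919, 1927 or 1928 was left out (adjusted p between 0.0771 and 0.166).

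Aurkb and Tpx2 followed Nusap1 in cartilage by size. Aurkb, the kinase of the chromosomal passenger complex, stood at 8.47 and 8.34 in S1Pcko cartilage, against 8.98 and 9.09 in WT cartilage. Its change was -0.63 (SE 0.17, adjusted p = 0.0637), just over the threshold, and in long bone it was -0.36 (SE 0.14, adjusted p = 0.258), with 8.24, 8.32 and 8.52 in S1Pcko against 8.50, 8.83 and 8.84 in WT. Tpx2, which activates Aurora A on the spindle, was at 8.40 and 7.53 in S1Pcko cartilage, against 9.33 and 8.46 in WT cartilage. Tpx2 was lower on the second amplification in both genotypes, and the change of -0.93 had an SE of 0.34 (adjusted p = 0.145).

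Mki67, Top2a and Bub1b had the most negative changes in long bone. Mki67 stood at 10.06, 10.15 and 10.07 in S1Pcko long bone, against 10.32, 10.48 and 10.86 in WT long bone (change -0.46, SE 0.15, adjusted p = 0.186). In cartilage it was at 10.37 and 10.45 in S1Pcko, against 10.83 and 11.07 in WT (change -0.54, SE 0.19, adjusted p = 0.132). Neither pair of groups overlapped, and neither change passed the test. A dimmer Mki67 probe, at group means of 5.73 in S1Pcko and 5.35 in WT cartilage, went the other way there. It changed by 0.38 in cartilage, with S1Pcko wholly above WT, and by -0.01 in long bone.

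Top2a stood at 9.46, 9.90 and 9.51 in S1Pcko long bone, against 9.98, 10.04 and 10.28 in WT long bone (change -0.47, SE 0.15, adjusted p = 0.17). In cartilage its values were 9.87 and 9.69 in S1Pcko and 10.16 and 10.27 in WT (change -0.43, adjusted p = 0.227, limma). Dimmer Top2a probes changed by -0.06 and 0.07 in cartilage and by -0.47 and -0.39 in long bone. Bub1b encodes the checkpoint protein BubR1, which holds chromosomes back until all are attached. It stood at 9.12, 8.81 and 8.69 in S1Pcko long bone, against 9.33, 9.24 and 9.21 in WT long bone (change -0.39, SE 0.14, adjusted p = 0.212), and its cartilage change was -0.10.

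None of the other mitosis genes passed the test. Cdk1, the kinase that drives entry into mitosis, changed by -0.51 in cartilage and -0.20 in long bone, and Birc5 (survivin, a partner of Aurkb) by -0.46 and -0.35. Cdc20, which activates the anaphase promoting complex, changed by -0.23 and -0.35, and Foxm1, the factor that switches on many mitosis genes, by -0.45 and -0.10. The centromere histone Cenpa changed by -0.20 and -0.36, the kinetochore kinesin Cenpe by -0.16 and -0.31, and the spindle kinase Aurka by -0.18 and -0.24. Bub1, at a level between 5.99 and 6.21 on the 12 arrays, changed by -0.02 and -0.04.

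Plk1, a kinase needed for spindle assembly, was split by array. Its log2 level was 9.15 on S1Pcko long bone array 1922 and 9.60 on WT long bone array 1921, while on the other 10 arrays it lay between 4.51 and 5.20, near the lowest detected level of about 5. The SE of its long bone change was 1.27, and its change of -0.02 says nothing of the genotype. Over all tested probes 1922 stood apart from its group and 1921 did so less clearly. These 2 arrays carry different genotypes. Kif11, the kinesin that pushes spindle poles apart, was detected on 2 of the 10 arrays, both of them WT. It is near background, so its changes of -0.22 in both tissues carry little. The remaining mitosis genes had no measured value: the probes of Ccna2, Ccnb2, Kif20a and Ube2c were detected on 0 of the 12 arrays, and Ccnb1 had no probe under its name in the annotation used.

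**Figure D3:**
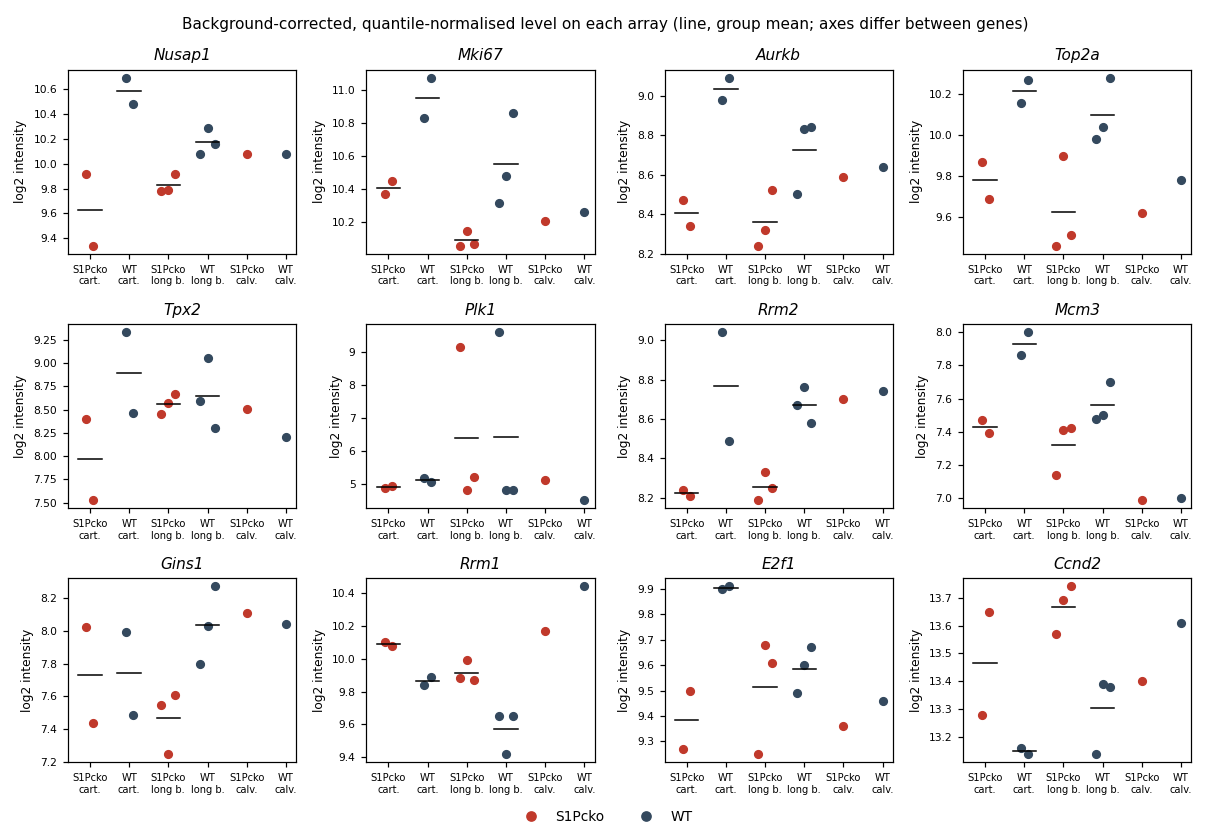
Normalised log2 intensity (vertical axis, its range differing between genes) of 12 member genes on each array (points; red S1Pcko, dark WT) in 6 groups of genotype by tissue; lines are group means. For cartilage and for long bone, the brightest probes of Nusap1, Mki67 and Top2a are lower on every S1Pcko array than on any WT array. Plk1 is high on 1 S1Pcko and 1 WT long bone array alone.

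Of the replication genes, Rrm2 had the most negative change in cartilage and Gins1 in long bone. Rrm2 stood at 8.24 and 8.21 in S1Pcko cartilage, against 9.04 and 8.49 in WT cartilage (change -0.54, SE 0.19, adjusted p = 0.126). In long bone it stood at 8.19, 8.33 and 8.25 in S1Pcko and 8.67, 8.76 and 8.58 in WT (change -0.41, SE 0.15, adjusted p = 0.234). Its arrays did not overlap in either tissue. Rrm1, the large subunit of the same enzyme, went the other way: it was at 10.10 and 10.08 in S1Pcko cartilage, against 9.84 and 9.89 in WT cartilage, and at 9.88, 9.99 and 9.87 in S1Pcko long bone, against 9.65, 9.42 and 9.65 in WT long bone. These changes were 0.23 (adjusted p = 0.443) and 0.34 (SE 0.12, adjusted p = 0.214), also without overlap and without passing the test. In cartilage a dimmer Rrm2 probe changed by -0.26 and a dimmer Rrm1 probe by 0.585, again without overlap. In long bone these 2 probes changed by 0.14 and -0.03, with overlap, and did not repeat the opposed changes.

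The Mcm genes encode the helicase ring, and their changes spread on both sides of 0. Mcm3 stood at 7.47 and 7.39 in S1Pcko cartilage, against 7.86 and 8.0 in WT cartilage (change -0.50, SE 0.16, adjusted p = 0.112). It was -0.23 in long bone (adjusted p = 0.451). Mcm2 stood at 9.52 and 9.81 in S1Pcko cartilage, against 9.58 and 9.97 in WT cartilage, and at 9.04, 9.39 and 9.35 in S1Pcko long bone, against 9.15, 9.40 and 9.77 in WT long bone, with overlap in both tissues. Mcm2 changed by -0.11 and -0.18, Mcm5 by -0.21 and -0.15, and Mcm7 by -0.16 and -0.05 in cartilage and in long bone. Mcm4 changed by 0.03 and -0.03 and Mcm6 by 0.00 and 0.05, with SEs between 0.13 and 0.16. By the brightest probes, Mcm3 alone of the 6 ring subunits moved by more than 0.25 on the log2 scale. A dimmer Mcm6 probe changed by -0.69 in cartilage, with S1Pcko wholly below WT.

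Pcna, the clamp that holds the polymerase on DNA, was at 6.28 and 6.35 in S1Pcko cartilage, against 6.73 and 6.52 in WT cartilage (change -0.31, SE 0.15, adjusted p = 0.286), and its long bone change was 0.03 (SE 0.13). Tyms, which makes thymidylate, was at 9.77 and 9.56 in S1Pcko cartilage, against 10.10 and 10.04 in WT cartilage (change -0.41, adjusted p = 0.199), with a change of 0.01 in long bone. Gins1, a part of the active helicase, was at 7.55, 7.25 and 7.61 in S1Pcko long bone, against 7.80, 8.03 and 8.27 in WT long bone (change -0.56, SE 0.20, adjusted p = 0.216), and its cartilage change was -0.01. For Pcna, Tyms and Gins1 the test of the difference between the tissues gave adjusted p of 0.458, 0.402 and 0.45 in limma, so their changes were not shown to differ between cartilage and long bone. The loading factors Cdc6 and Cdt1 changed by -0.19 and 0.13 in cartilage and by -0.14 and -0.31 in long bone.

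Of the G1/S genes 0 passed by their brightest probe. By their brightest probes the D-type cyclins Ccnd1 and Ccnd2, which carry growth signals to the cycle, had positive changes in both tissues. These were 0.35 and 0.32 in cartilage (adjusted p = 0.334 for each, limma). In long bone they were 0.25 and 0.36 (adjusted p = 0.483 and 0.257, limma). Dimmer Ccnd1 probes changed by -0.03, 0.30 and 0.15 in cartilage and by 0.18, -0.09 and -0.08 in long bone. Ccnd1 stood at 12.02 and 12.18 in S1Pcko cartilage, against 11.78 and 11.72 in WT cartilage, and at 11.85, 12.11 and 12.13 in S1Pcko long bone, against 11.50, 11.85 and 11.98 in WT long bone, where the groups overlapped. Ccnd2 stood at 13.28 and 13.65 in S1Pcko cartilage, against 13.16 and 13.14 in WT cartilage, and at 13.57, 13.69 and 13.74 in S1Pcko long bone, against 13.14, 13.39 and 13.38 in WT long bone. A dimmer Ccnd2 probe passed in cartilage at 9.75 and 10.37 in S1Pcko and 8.83 and 9.15 in WT (change 1.07, adjusted p = 0.0221), and was picked after its value was seen. The call of this probe was lost without array 1919, 1927 or 1928 (adjusted p between 0.0676 and 0.177). Ccnd3 changed by -0.08 in cartilage and 0.38 in long bone, where its arrays stood at 8.27, 8.52 and 8.42 in S1Pcko against 8.06, 7.70 and 8.31 in WT.

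E2f1, a transcription factor of the replication genes, was at 9.27 and 9.50 in S1Pcko cartilage, against 9.90 and 9.91 in WT cartilage (change -0.52, SE 0.18, adjusted p = 0.125), and its long bone change was -0.07. The E-type cyclin Ccne2 was at 7.66 and 7.18 in S1Pcko cartilage, against 8.09 and 7.83 in WT cartilage (change -0.54, SE 0.23, adjusted p = 0.215), and its long bone change was -0.005 (adjusted p = 0.995). Its relative Ccne1 had changes of -0.11 in cartilage (adjusted p = 0.88) and -0.42 in long bone (SE 0.23, adjusted p = 0.43), with 7.65, 7.84 and 7.86 in S1Pcko against 7.57, 8.37 and 8.68 in WT. A dimmer Ccne1 probe changed by 0.23 in long bone (adjusted p = 0.575). The lowest value of Ccne1 was that of WT array 1921, and without it the change was -0.74 with an adjusted p of 0.027 in limma. WT long bone then rests on arrays 1923 and 1929, which by their labels repeat the same extract. That p covers no spread between WT long bone extracts.

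Several members have more than 1 probe, and the probes did not always move alike. Of 57 tested probes, 24 belong to mitosis genes, of which 21 were lower in S1Pcko cartilage and 23 in S1Pcko long bone. Of 20 replication probes 14 were lower in cartilage and 11 in long bone. Among the 14 members with more than 1 tested probe, all probes shared a direction for 8 in cartilage and for 5 in long bone. A second probe of Mcm6 changed by -0.69 in cartilage (adjusted p = 0.189), where the brighter one gave 0.00.

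Tissue was compared within each genotype. In S1Pcko embryos, 0 of 35 members passed between long bone and cartilage (background 1.4% higher and 0.383% lower in long bone), and 0 passed in WT embryos (6.08% higher, 5.26% lower). With the mean of each gene's probes 1 member, Mcm7, passed in WT embryos, as lower in long bone. By the same model 1 member in S1Pcko (Bub1b, -0.39) and 5 in WT (Mcm3, Mki67, Cdk1, Foxm1 and Nusap1, between -0.46 and -0.36) had an unadjusted p under 0.05, all lower in long bone, where 8.09% of all genes in S1Pcko and 14.4% in WT were lower at that threshold. The change with genotype was set against itself between the tissues as cartilage minus long bone, and 0 of 35 members passed (background 0.191% higher, 0.239% lower), with Nusap1 the member at an unadjusted p under 0.05.

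In calvaria 1 array per genotype allows no test. Mitosis genes were higher for 7 and lower for 9 (median difference -0.03), replication genes higher for 6 and lower for 7 (median -0.005), and the median of all genes was -0.01. Of the 6 G1/S genes 1 was higher and 5 were lower (median -0.16, between -0.36 for Ccnd3 and 0.35 for Ccnd1). Nusap1 stood at 10.08 on both arrays, Mki67 at 10.21 in S1Pcko and 10.26 in WT, and Mcm3 at 6.99 in S1Pcko and 7.0 in WT. One member differed by over 2-fold, Bub1b, at 9.24 in S1Pcko and 8.22 in WT.

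Other genes of the cycle were counted from lists written with earlier results of these data known. Of 36 further mitosis genes measured (46 listed), 33 were negative in cartilage (median -0.39) and 31 in long bone (median -0.21). Over all genes 51.5% were positive in cartilage and 47.9% in long bone. By the adjusted p 2 of the 36 passed as lower in cartilage and 1 in long bone, against 2.92% and 1.03% of all genes. Pbk, a kinase active in mitosis, was at 6.11 and 5.73 in S1Pcko cartilage, against 7.32 and 7.08 in WT cartilage (2.42-fold lower, adjusted p = 0.012). Spc25, a subunit of the kinetochore complex that grips microtubules, was at 7.40 and 7.01 in S1Pcko, against 8.61 and 7.97 in WT (2.12-fold lower, adjusted p = 0.0279). In long bone Cdca3, which targets the kinase Wee1 for destruction, fell by 0.62 on the log2 scale (adjusted p = 0.0291), with 11.06, 10.91 and 11.10 in S1Pcko against 11.70, 11.59 and 11.65 in WT.

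Of 30 further replication genes measured (35 listed), 22 were negative in each tissue, with medians of -0.19 in cartilage and -0.08 in long bone. In cartilage Prim1, the primase subunit that starts new strands, fell by 0.72 (adjusted p = 0.0452) and Rpa2, which coats single-stranded DNA, fell by 0.71 (adjusted p = 0.031), and in long bone 0 of 30 passed by limma, with 2 lower at an unadjusted p under 0.05. Rpa2 stood at 8.43 and 8.45 in S1Pcko cartilage, against 9.13 and 9.17 in WT cartilage. Over all genes 2.92% passed as lower in cartilage and 1.03% in long bone, where 8.44% were lower at the unadjusted threshold.

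Of 10 measured cycle inhibitors and brakes, 1 passed as higher and 2 as lower in cartilage, against 2.38% and 2.92% of all genes. Cdkn1a, the kinase inhibitor that p53 switches on, was at 11.03 and 11.43 in S1Pcko cartilage, against 9.71 and 10.11 in WT cartilage (2.49-fold higher, adjusted p = 0.00763). In long bone it was at 11.46, 11.33 and 11.25 in S1Pcko, against 10.49, 10.66 and 11.06 in WT (change 0.61, adjusted p = 0.133). Cdkn2c, an inhibitor of the D-type cyclin kinases, was at 8.44 and 8.88 in S1Pcko cartilage, against 9.66 and 10.10 in WT cartilage (2.33-fold lower, adjusted p = 0.00879), and its relative Cdkn2d fell by 0.78 on the log2 scale (adjusted p = 0.0284). In long bone Cdkn2c changed by -0.74 with an adjusted p of 0.0579 in limma, so 0 of the 10 passed there. Of all genes 1.38% passed as higher and 1.03% as lower in long bone.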

How the data were processed

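The members and all lists were chosen with earlier results of these data known. Every member's value is accounted for; values by array are given for members that were called, for the 3 largest changes of each role in cartilage and in long bone, and for Mki67, Pcna and Mcm2. As deposited by the authors, the main table holds probe intensity values without normalisation or background subtraction, each with a detection p-value. The deposited authors' processed intensity values served as an alternative. The bead summary software is not given in the sources used here. RNA had been extracted with Trizol and RNeasy and labelled with Ambion MessageAmp.

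Background of the 46643 probe signals was removed by neqc (offset 16) of limma 3.58.1 in R 4.3.3, which also quantile normalised the 12 arrays. Between 44.1% and 47.1% of probes were detected per array (p under 0.05); the number of arrays limits the precision. The 23744 probes detected on at least 2 of 10 arrays were fitted with limma in 4 groups (6 residual degrees of freedom), with Benjamini-Hochberg adjustment over all of them. The methods name a 2-way ANOVA. Gene names came from the platform annotation, which names 32794 probes by 1 symbol, 55 by several and does not list 13794; symbols were updated through RefSeq. Code was tested on simulated data. Alternatives covered background, scaling, filter, model, probe summary and left-out arrays.

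The labels mark second amplifications, but do not say whether the genotypes were amplified together. Across probes, the deviations of first-amplification cartilage arrays 1920 and 1919 from their group means correlated at 0.47. For long bone arrays 1930 and 1929, marked as second amplifications, the correlation was 0.02. Whether the genotypes shared an amplification round was not tested.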

Additional observations from a re-analysis of the deposited data

Results flagged for a closer look

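Bub1b in calvaria was the member with a signal outside the fitted comparisons: its level was 9.24 on the S1Pcko array and 8.22 on the WT array, a difference of 1.02 on the log2 scale between single arrays, with no error. Over all 12542 genes, 143 were more than 2-fold higher and 31 more than 2-fold lower in S1Pcko calvaria. On the other 10 arrays Bub1b lay between 8.69 and 9.42, so the WT calvarium array was the lowest of the 12.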

How the results depend on the processing

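Mitosis genes stayed mostly negative: 15 or 16 of 16 in cartilage and 14 to 16 of 16 in long bone with a single array left out. Their cartilage median moved beyond the spread between arrays (0.08) to -0.42 with 75th percentile scaling, -0.47 with the authors' processed values, -0.44 when probes had to be detected on every array of a group, -0.44 without Plk1 and Kif11, and -0.23 both with all probes kept and with the mean of the probes; in long bone the last 2 gave -0.23 each. Leaving out 1 array gave mitosis medians of -0.35 to -0.30 in cartilage and -0.34 to -0.30 in long bone. Replication medians then ran between -0.30 (without array 1920) and -0.11 (without array 1928) in cartilage, and between -0.22 (without array 1930) and -0.028 (without array 1929) in long bone.

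The count of members past the adjusted p in cartilage, 1, became 2 (Aurkb added) without background correction, with an offset of 50, with the mean of the probes and without arrays 1921 and 1922. It became 0 with the authors' values, the ordinary linear model and the first amplification round alone, and ran from 0 to 2 with an array left out. With 75th percentile scaling 1 member also passed the 2-fold threshold, and 0 to 1 did with an array left out. In long bone the count of 0 became 1 (Ccne1) without array 1921, and without both 1921 and 1922. WT long bone then rested on arrays 1923 and 1929, which by their labels repeat the same extract. The replicate block kept 1 call in cartilage and 0 in long bone, and 0 between the tissues of either genotype and for the difference; at an unadjusted p under 0.05 it gave 11 members in cartilage, 14 in long bone and 3 for the difference, against 12, 12 and 1 without it. Leaving out 1921 and 1922 together, and Plk1 and Kif11, was chosen after seeing the data. The cause of these shifts was not tested. Probes near background (Plk1, Kif11, Bub1) carry little information, and each cartilage genotype rests on 2 arrays.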
